A study of Drosophila melanogaster with 6 samples.

Results

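The genes for the integrin subunits mys, if, mew and scb, for the adaptor talin (rhea), for the laminin chains LanA, LanB1 and LanB2, and for the laminin receptor dystroglycan (Dg) were followed in RasV12-expressing wing disc cells. These 9 genes were chosen by name, with earlier results of these data known, from the 14233 genes of the count table. The symbol column held 8 of them. The row described there as Laminin B2 has no symbol and was matched to LanB2 by its identifier in the supplied name table. All 9 genes were abundant enough to be tested.

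Integrins are alpha-beta heterodimers that hold the basal side of an epithelium to its basement membrane, and talin ties their cytoplasmic tails to actin. In the fly wing disc, the beta subunit encoded by mys pairs with an alpha subunit that differs between compartments, mew in dorsal and if in ventral cells, and both pairs are known for holding the dorsal and ventral wing surfaces together. Laminins are secreted trimers of an alpha, a beta and a gamma chain that found the basement membrane, and integrins and dystroglycan are receptors for them.

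The RasV12 group carried Ap>Gal4, myrT, UAS-RasV12 and TubGal80ts, and the GFP-i group carried the same driver, membrane-tethered Tomato label and Gal80 repressor with GFP-i in place of RasV12. RasV12 is a Ras GTPase locked in its active state, and GFP-i is the labels' name for the control construct. The ap driver acts in the dorsal compartment, larvae were raised for 6 days at 18 °C and for 3 days at 29 °C, and wing discs of wandering larvae were dissociated with trypsin before the transgene-expressing cells were sorted. Each genotype had 3 libraries of 150000 sorted cells, read by 3' mRNA sequencing, which counts the 3' ends of transcripts. Nothing in the labels ties the replicates to separate batches of larvae, and the p-values therefore cover the spread between these libraries only.

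Library totals were 11070295 to 15093162 counts in RasV12 and 12650093 to 15581752 counts in GFP-i. A floor of 3 counts, for counting error only, corresponded to 0.208 to 0.281 CPM in RasV12, against 0.177 to 0.226 CPM in GFP-i libraries, where CPM denotes counts scaled to library depth with TMM factors. The dorsal gene ap was at 236 ± 30.3 CPM in RasV12, against 271 ± 40.9 CPM in GFP-i (SD, n = 3 each). Among 6 wing epithelium markers shg and Dll rose, by 0.66 and 0.48 on the log2 scale, and crb did not pass. Fas3, vg and nub fell, with log2 fold changes of -0.59, -1.45 and -3.58. The level of nub was 12.6 ± 0.698 CPM in RasV12, against 151 ± 7.19 CPM in GFP-i. That of vg was 39.3 ± 9.35 CPM in RasV12, against 107 ± 18.4 CPM in GFP-i. The 6 markers summed to 1164 to 1267 CPM in RasV12, against 1535 to 1734 CPM in GFP-i libraries, with Fas3 the largest part in each group. The calls of shg and Dll were lost without RasV12 replicate 1 (adjusted p = 0.066 and 0.094) or 3 (0.091 and 0.069), or without GFP-i replicate 1 (0.146 and 0.147) or 3 (0.211 and 0.228). Scaling by library totals alone (0.112 and 0.149) also ended both calls, as did dropping ribosomal RNA and mitochondrial rows (0.0501 and 0.052). The Dll call was lost as well with no filter on low counts (0.086) and with RasV12 replicate 3 and GFP-i replicate 2 both left out (0.084). Of 9134 tested genes, 836 rose and 519 fell in RasV12 cells (edgeR adjusted p under 0.05), against 615 and 910 when libraries were scaled by their totals alone.

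In RasV12 cells the transcripts of the dorsal integrin pair went opposite ways. That of its alpha subunit mew fell, and that of mys, the beta subunit shared with if and scb, rose. The transcripts of talin, the beta subunit mys, the alpha subunits scb and if, and the receptor Dg rose in RasV12 cells. The dorsal alpha subunit mew and the laminin alpha chain LanA fell, and LanB1 and LanB2 did not pass the test. Thus 5 of the 9 genes rose, where the background was 9.15% of all tested genes, and 2 fell, where it was 5.68% (14.8% in either direction). The median log2 fold change of the 9 genes was 0.59, beside 0.02 over all tested genes. The CPM of the genotypes did not overlap for 7 of the 9 genes, against 33.6% of all tested genes. The 9 genes were chosen with earlier results of these data known, so these comparisons with all tested genes are a description and not a test. In these bulk samples, a change in the share of a cell type and a change in RNA per cell cannot be told apart.

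**Figure D1:**
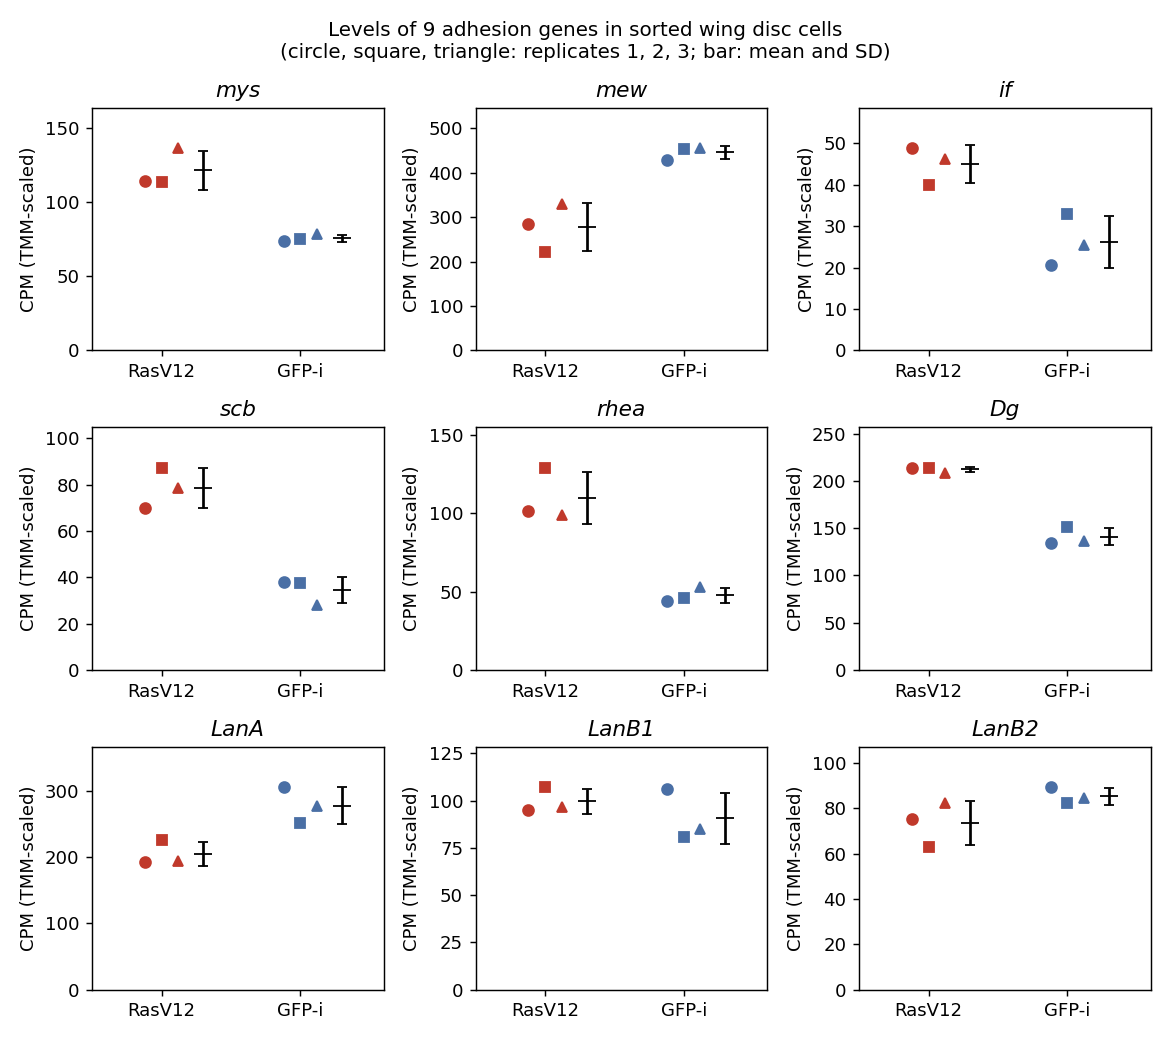
Levels of the 9 genes in TMM-scaled CPM (vertical axes, from 0) in the 3 RasV12 and 3 GFP-i libraries, with circles, squares and triangles for replicates 1, 2 and 3 and a bar for the mean and SD. The RasV12 points lie above all GFP-i points for mys, if, scb, rhea and Dg, below them for mew and LanA, and the groups overlap for LanB1 and LanB2.

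Among the alpha subunits, mew (X, 13214409 to 13258490, minus strand, dm6) encodes the partner used by dorsal cells, a laminin receptor. The RasV12 libraries held 284, 222 and 329.9 CPM of mew, against 429, 453 and 455 CPM in the GFP-i libraries. Every RasV12 library lay below every GFP-i library, and the RasV12 libraries were the more dispersed, with a coefficient of variation of 19.5% against 3.24% in GFP-i. The level of mew fell by 0.68 on the log2 scale (SE 0.15, n = 3 per group; edgeR adjusted p = 0.014), to 0.625 of the GFP-i level. Without RasV12 replicate 1 its adjusted p was 0.056 at a log2 fold change of -0.69.

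The ventral alpha subunit gene if (X, 16752189 to 16783434, minus strand) encodes a receptor for matrix proteins with an RGD motif. It was measured at 48.9, 39.98 and 46.2 CPM in RasV12, against 20.5, 32.9 and 25.4 CPM in GFP-i, from 273 to 674 counts per library. The groups did not overlap, and GFP-i replicate 2 came nearest to the RasV12 range. The log2 fold change was 0.78 ± 0.19 (SE; edgeR adjusted p = 0.022). This call depended on single libraries, since leaving out RasV12 replicate 1 or 3 gave an adjusted p of 0.089 or 0.056, and leaving out GFP-i replicate 1 or 3 gave 0.094 or 0.138. With scaling by library size only it was 0.061. That scaling moved the median log2 fold change over all genes to -0.14.

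Muscle precursors lie under the notum epithelium of the disc, and muscle cells also use if. The 7 muscle precursor markers summed to 78.4 to 95.6 CPM in RasV12, against 97.6 to 138 CPM in GFP-i libraries, the highest in GFP-i replicate 2. Of these markers 3 fell and none rose, with log2 fold changes of -3.44 for Him, -2.04 for htl and -2.18 for zfh1; zfh1 missed the threshold when RasV12 replicate 1 (adjusted p = 0.072), the GFP-i library numbered 2 (0.057) or that numbered 3 (0.072) was left out. Mef2, which gave the largest part of the RasV12 sum, went the other way, at 46.7, 47.8 and 53.7 CPM in RasV12, against 35.0, 42.5 and 40.2 CPM in GFP-i, without overlap and without passing (log2 fold change 0.33; edgeR adjusted p = 0.152). The sum therefore differed less than the markers that fell. No marker of this list was at 0 in any library. The sort for the ap-driven label was meant to leave out precursors that lack it, and how far it did was not tested. The part of muscle precursors in the level of if was not tested.

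The alpha subunit gene scb (2R, 15248784 to 15258498, plus strand) had the largest rise among the 4 integrin genes. It was at 70.0, 87.3 and 78.7 CPM in RasV12, against 38.0, 37.5 and 28.2 CPM in GFP-i. The lowest RasV12 library was above the highest GFP-i library by a wide margin. The log2 fold change was 1.19 ± 0.16 (SE; edgeR adjusted p = 9.1e-04), a 2.27-fold rise. In the embryo, scb is known from trachea and salivary gland, among other tissues. Of 4 tracheal markers, btl, serp and verm rose by 1.19, 0.95 and 0.72 on the log2 scale, and trh, the tracheal determinant, stood at 49.1 ± 6.96 CPM in RasV12, against 73.5 ± 16.1 CPM in GFP-i (edgeR adjusted p = 0.061). The log2 fold change of trh was -0.58, without overlap of the groups. It passed as lower with DESeq2, with scaling by library size only, with no filter on low counts and without GFP-i replicate 1. The summed level of the 4 markers was 390.2 to 491 CPM in RasV12, against 274 to 324 CPM in GFP-i libraries, and none was at 0 in any library. Without GFP-i replicate 3, verm missed the threshold (adjusted p = 0.065). With both RasV12 replicate 3 and GFP-i replicate 2 left out, 1 of the 4 markers passed as higher. The part of tracheal cells in the level of scb was not tested.

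The remaining integrin genes were scarce. The beta subunit gene Itgbn, with 0.219 CPM in RasV12, against 0.637 CPM in GFP-i on average, was too low to test. Next to scb on 2R, the related alpha subunit gene ItgaPS4 changed by an estimated 0.81 ± 0.33 (log2, SE; edgeR adjusted p = 0.138), which did not pass, and ItgaPS5 averaged under 1 CPM in both groups. None of the 2 tested genes passed with edgeR, DESeq2 or limma-voom, and 1 had an unadjusted p under 0.05; ItgaPS4 passed without RasV12 replicate 3. Most of ItgaPS4 is free of other genes, but its end overlaps Trpm on the other strand, which has more counts, so its level is uncertain.

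The beta subunit gene mys (X, 8061645 to 8070237, plus strand) serves all 3 of these alpha subunits. Its level was 114.5, 114 and 137 CPM in RasV12, against 73.8, 75.3 and 78.3 CPM in GFP-i. The GFP-i libraries were nearly equal, and each RasV12 library was well above them. The log2 fold change was 0.68 ± 0.13 (SE; edgeR adjusted p = 0.0057). The call held without any single library, and its adjusted p was 0.080 when RasV12 replicate 3 and also GFP-i replicate 2 were left out, with 2 libraries remaining per group.

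With mew falling and mys, if and scb rising, the composition of the integrin transcripts differed between genotypes. The count of mew, if and scb together per count of mys was 3.51, 3.06 and 3.33 in the RasV12 libraries and 6.61, 6.95 and 6.50 in the GFP-i libraries. Counts of 3' ends depend on the gene, so these ratios are not ratios of molecules, and only their difference between genotypes is of use. Of the counts of the 3 alpha genes, mew made up 68.8 ± 4.72% in RasV12 and 88.0 ± 1.47% in GFP-i (SD, n = 3 each). The share of if was 11.3 ± 1.01% in RasV12 and 5.16 ± 1.06% in GFP-i, and that of scb was 19.9 ± 4.43% in RasV12 and 6.83 ± 1.17% in GFP-i. The largest share of scb, 25.0%, was in RasV12 replicate 2, the library with the smallest share of mew. Per 100 mew counts there were 17.2, 18.0 and 14.02 counts of if in RasV12 and 4.78, 7.27 and 5.57 in GFP-i. These ratios combine levels already tested gene by gene and are given as a description.

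**Figure D2:**
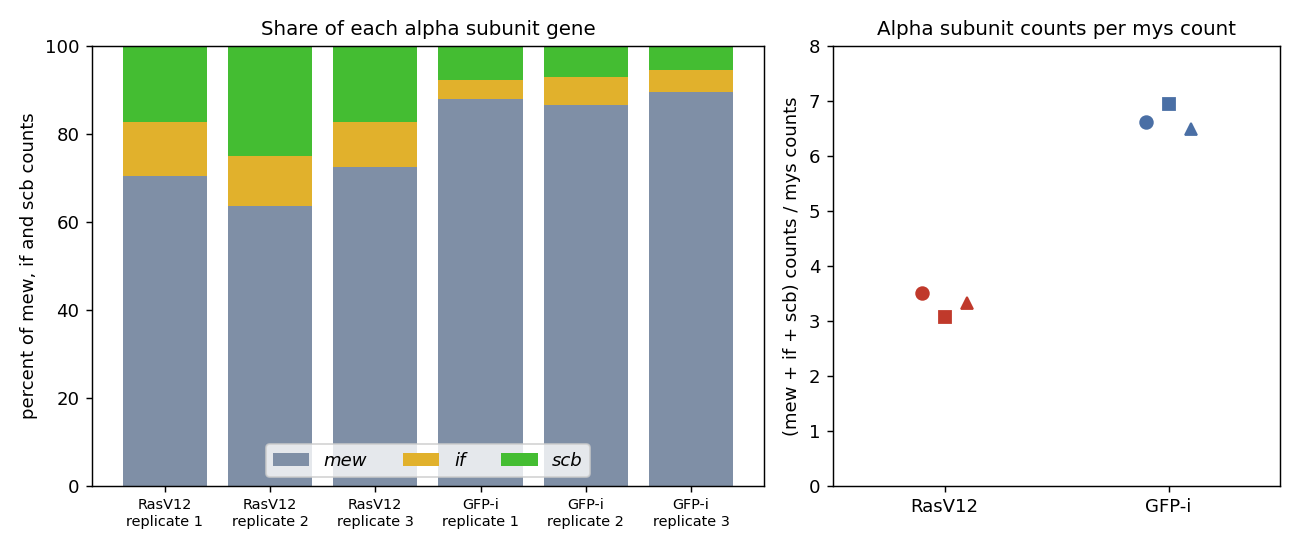
Left, the percent of the counts of mew, if and scb that each gene held in each library; right, the counts of the 3 alpha subunit genes divided by the mys count. In RasV12 libraries mew held 63.5 to 72.5% and the ratio was 3.06 to 3.51, and in GFP-i libraries mew held 86.5 to 89.5% and the ratio was 6.50 to 6.95.

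Talin, encoded by rhea (3L, 8545001 to 8574409, plus strand), binds the beta subunit tail, activates the integrin and links it to actin. The level of rhea was 101, 129 and 98.9 CPM in RasV12, against 43.9, 45.9 and 52.8 CPM in GFP-i. It had the lowest p among the 9 genes, with no overlap between the genotypes. The log2 fold change was 1.21 ± 0.15 (SE; edgeR adjusted p = 5.6e-04), a 2.31-fold rise. Per 100 mys counts there were 88.4, 113 and 72.4 counts of rhea in RasV12 and 59.5, 61.0 and 67.3 in GFP-i. The gene overlaps CG6638 on the other strand by 3 bases.

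In a list of 20 other genes for cytoplasmic linkers and signalling at integrin adhesions, 4 passed, all as rises, and 16 did not, at a median log2 fold change of 0.34. The kinase gene Src64B rose by 1.13 ± 0.15 (log2, SE), at 133, 128 and 157 CPM in RasV12, against 59.2, 73.3 and 58.6 CPM in GFP-i (edgeR adjusted p = 6.6e-04). The vinculin gene Vinc (0.55 ± 0.15), the actin-binding gene Lasp (0.69 ± 0.18) and the alpha-actinin-binding gene Zasp52 (0.58 ± 0.16) also rose. These 3 calls depended on single libraries and on the settings. Leaving out any of the 3 GFP-i libraries, or scaling by library totals alone, left Src64B as the only rise. With a replicate block, or with RasV12 replicate 3 and GFP-i replicate 2 both left out, 1 of the 20 genes rose. With RLE size factors or upper quartile scaling 3 rose, and with DESeq2 or a filter of 10 CPM in 3 libraries 5 rose. Without RasV12 replicate 1 or 3, 2 of the 20 genes passed, and without replicate 3 Ilk, described below, was 1 of them. The gene Fak fell when GFP-i replicate 1 was left out, which made 1 fall.

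The integrin-linked kinase gene Ilk, whose product joins the tail complex, was at 31.0, 40.7 and 24.2 CPM in RasV12, against 21.1, 13.7 and 22.0 CPM in GFP-i. Its log2 fold change of 0.76 ± 0.24 did not pass (edgeR adjusted p = 0.065), and it passed with DESeq2 (0.032), with no filter (0.04996) and without RasV12 replicate 3 (0.039). The kindlin genes Fit1 and Fit2, integrin activators beside talin, stood at log2 fold changes of 0.36 and 0.05 and did not pass. Zasp52 overlaps tun on the other strand, and whether counting used strand is not stated, so its level is uncertain.

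Dystroglycan, encoded by Dg (2R, 16081176 to 16098564, minus strand), is a transmembrane receptor for laminin and perlecan. Dg stood at 214, 214 and 209 CPM in RasV12, against 134, 152 and 137 CPM in GFP-i. Its RasV12 libraries were the most even of any group of the 9 genes, with a coefficient of variation of 1.40%. The log2 fold change was 0.59 ± 0.12 (SE; edgeR adjusted p = 0.0077). Leaving out GFP-i replicate 1 or 3 brought the adjusted p to 0.062 and 0.083.

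Dystrophin, encoded by Dys, anchors dystroglycan to the cytoskeleton, and it was at 354 ± 54.9 CPM in RasV12, against 409 ± 46.8 CPM in GFP-i (SD, n = 3; log2 fold change -0.21 ± 0.15, SE; edgeR adjusted p = 0.404). Of 6 tested genes of the dystroglycan complex and its glycosylation, none rose or fell with edgeR, DESeq2 or limma-voom, and 1 had an unadjusted p under 0.05. That gene was tw, an O-mannosyltransferase gene, at a log2 fold change of -0.34, which passed as lower with scaling by library size only. The sarcoglycan genes Scgalpha and Scgbeta were too low to test.

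**Figure D3:**
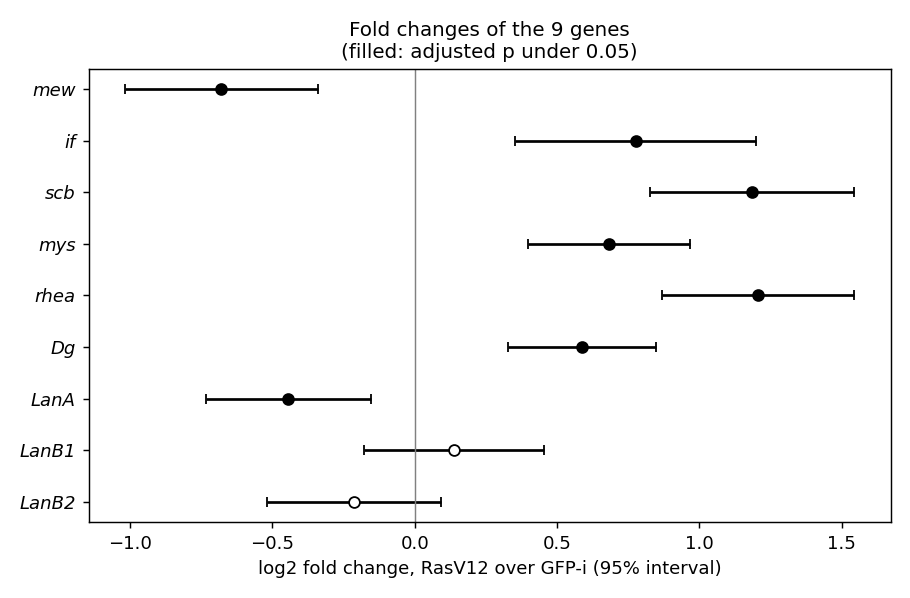
Log2 fold change of each gene, RasV12 over GFP-i, with its 95% interval from the edgeR fit; filled points have an adjusted p under 0.05. The intervals of if, scb, mys, rhea and Dg lie above 0, those of mew and LanA below 0, and those of LanB1 and LanB2 cross it.

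The laminin chains did not move together. LanA (3L, 6203831 to 6218022, minus strand), the alpha chain of one of the fly laminins, was at 193, 226 and 194 CPM in RasV12, against 305, 251 and 278 CPM in GFP-i. The highest RasV12 library was close below the lowest GFP-i library. LanA fell by 0.44 on the log2 scale (SE 0.13; edgeR adjusted p = 0.047), the smallest change among the 9 genes to pass. Leaving out RasV12 replicate 1 or 3 gave an adjusted p of 0.148 or 0.119, and leaving out GFP-i replicate 1 or 3 gave 0.111 or 0.116.

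The beta chain gene LanB1 (2L, 7811438 to 7820771, plus strand) was at 95.2, 107 and 96.8 CPM in RasV12, against 106, 80.8 and 85.0 CPM in GFP-i. The groups overlapped, and the log2 fold change of 0.14 had a 95% interval of -0.18 to 0.45 (edgeR adjusted p = 0.574). The gamma chain gene LanB2 (3L, 9614914 to 9623980, plus strand) was at 75.6, 63.1 and 82.3 CPM in RasV12, against 89.4, 82.2 and 84.5 CPM in GFP-i. Its highest RasV12 library was just above its lowest GFP-i library, and the log2 fold change of -0.21 had a 95% interval of -0.52 to 0.09 (edgeR adjusted p = 0.356). Neither interval reaches a change of 1 log2 unit in either direction.

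Within each library, LanA held 2.03, 2.11 and 2.01 counts per LanB1 count in RasV12 and 2.88, 3.10 and 3.27 in GFP-i, with no overlap. Per LanB2 count, LanA held 2.56, 3.57 and 2.36 in RasV12 and 3.42, 3.05 and 3.28 in GFP-i. RasV12 replicate 2 lay above the GFP-i range and the other RasV12 libraries below it, and RasV12 replicate 2 also had the lowest LanB2 level of all 6 libraries. LanB1 held 1.26, 1.70 and 1.18 counts per LanB2 count in RasV12 and 1.19, 0.983 and 1.01 in GFP-i, and the groups overlapped. These ratios are a description, as for the integrins.

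The other laminin alpha chain gene, wb (2L, 14263027 to 14328262, plus strand), fell further than LanA. It was at 16.2, 23.6 and 22.6 CPM in RasV12, against 48.6, 56.8 and 44.8 CPM in GFP-i, with no overlap. Its log2 fold change was -1.27 ± 0.18 (SE; edgeR adjusted p = 0.0013), a call that held in all 16 alternatives, with adjusted p up to 0.022. In the list of 12 basement membrane and matrix ligand genes to which wb belongs, 5 fell, 1 rose and 6 did not pass, with a median log2 fold change of -0.74. The papilin gene Ppn (-0.996 ± 0.17), the collagen IV genes Col4a1 (-1.72 ± 0.32) and vkg (-2.18 ± 0.35) and the spondin gene mspo (-0.87 ± 0.25) were the others that fell. Only 3 of them fell where at least 10 CPM in 3 libraries was required, since Col4a1 and vkg are below that level. The mspo call was lost without any library but GFP-i replicate 1 (adjusted p = 0.068 to 0.105). In the list, 6 fell with scaling by library size only and with no filter. With DESeq2, with limma-voom and without GFP-i replicate 1, 2 rose. Of those that did not pass, Tsp and SPARC stood higher, at log2 fold changes of 0.79 and 0.48 (edgeR adjusted p = 0.064 and 0.130). The others, trol, Ndg, Pxn and dpy, stood lower.

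The gene that rose in the fit as reported was Tig (2L, 6415179 to 6423310, minus strand). It encodes tiggrin, an RGD-containing matrix ligand of the integrin formed by if and mys. Tig stood at 147, 147 and 138 CPM in RasV12, against 2.63, 6.77 and 6.26 CPM in GFP-i. In counts these were 2028, 1569 and 1997 in RasV12 and 35, 115 and 83 in GFP-i. The RasV12 libraries were nearly equal and far above the GFP-i libraries. The log2 fold change was 4.77 ± 0.30 (SE; edgeR adjusted p = 2.1e-05), a 27.3-fold rise, and Tig was the gene with the largest change in all of these lists. The call held in all 16 alternatives, at log2 fold changes of 4.40 to 5.003. Tig overlaps CG13982 on the other strand by 157 bases, and CG13982 had 61 counts in all libraries together against 5827 for Tig.

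Haemocytes and fat body secrete much of the laminin and collagen IV of the fly. Of 8 haemocyte markers 7 were matched, 4 were tested and none passed with edgeR, DESeq2 or limma-voom, with 1 at an unadjusted p under 0.05. The 7 summed to 12.6 to 15.8 CPM in RasV12, against 12.03 to 22.9 CPM in GFP-i libraries. Of the 4 tested, srp was at 6.52 ± 0.249 CPM in RasV12, against 9.13 ± 2.97 CPM in GFP-i (log2 fold change -0.49). Sr-CI was at 1.48 ± 0.180 CPM in RasV12, against 2.55 ± 0.272 CPM in GFP-i, without overlap (-0.78). Pxn also stood lower (-0.75), and crq stood higher (0.21). Among the untested markers, Hml was at 0.527 ± 0.415 CPM in RasV12, against 0.534 ± 0.344 CPM in GFP-i. He was at 0 in all RasV12 libraries and had 1, 3 and 1 counts in GFP-i, and eater had 1 count in all. The 7 fat body markers summed to 11.8 to 16.3 CPM in RasV12, against 7.74 to 14.8 CPM in GFP-i, most of it Lsp1beta, and Fbp1 was at 0 in all RasV12 libraries. Of the 2 tested, none passed with edgeR, DESeq2 or limma-voom, and 1 had an unadjusted p under 0.05. The sort for the ap-driven label was meant to leave out haemocytes and fat body cells that lack it, and how far it did was not tested. Their part in the levels of the laminin and collagen genes was not tested.

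Among 9 tested genes for matrix proteases and matrix secretion, 3 passed, all as rises, and 6 did not. The matrix metalloproteinase gene Mmp1 was at 149, 137 and 193 CPM in RasV12, against 47.6, 56.6 and 51.4 CPM in GFP-i, and Mmp2 was at 374, 329 and 423 CPM in RasV12, against 110.2, 150.3 and 132 CPM in GFP-i. Both held in all 16 alternatives. Crag, a gene for polarised basement membrane secretion, rose by 0.75 ± 0.13 (log2, SE; edgeR adjusted p = 0.0034). The Crag call was lost with RasV12 replicate 3 and GFP-i replicate 2 both left out, where 2 genes of the list rose. The metalloproteinase inhibitor gene Timp was at 2.46 ± 0.966 CPM in RasV12, against 4.29 ± 2.41 CPM in GFP-i and did not pass (edgeR adjusted p = 0.257). Timp lies wholly within Syn on the other strand, which had 340 counts in all against 289 for Timp, so its level is uncertain.

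**Figure D4:**
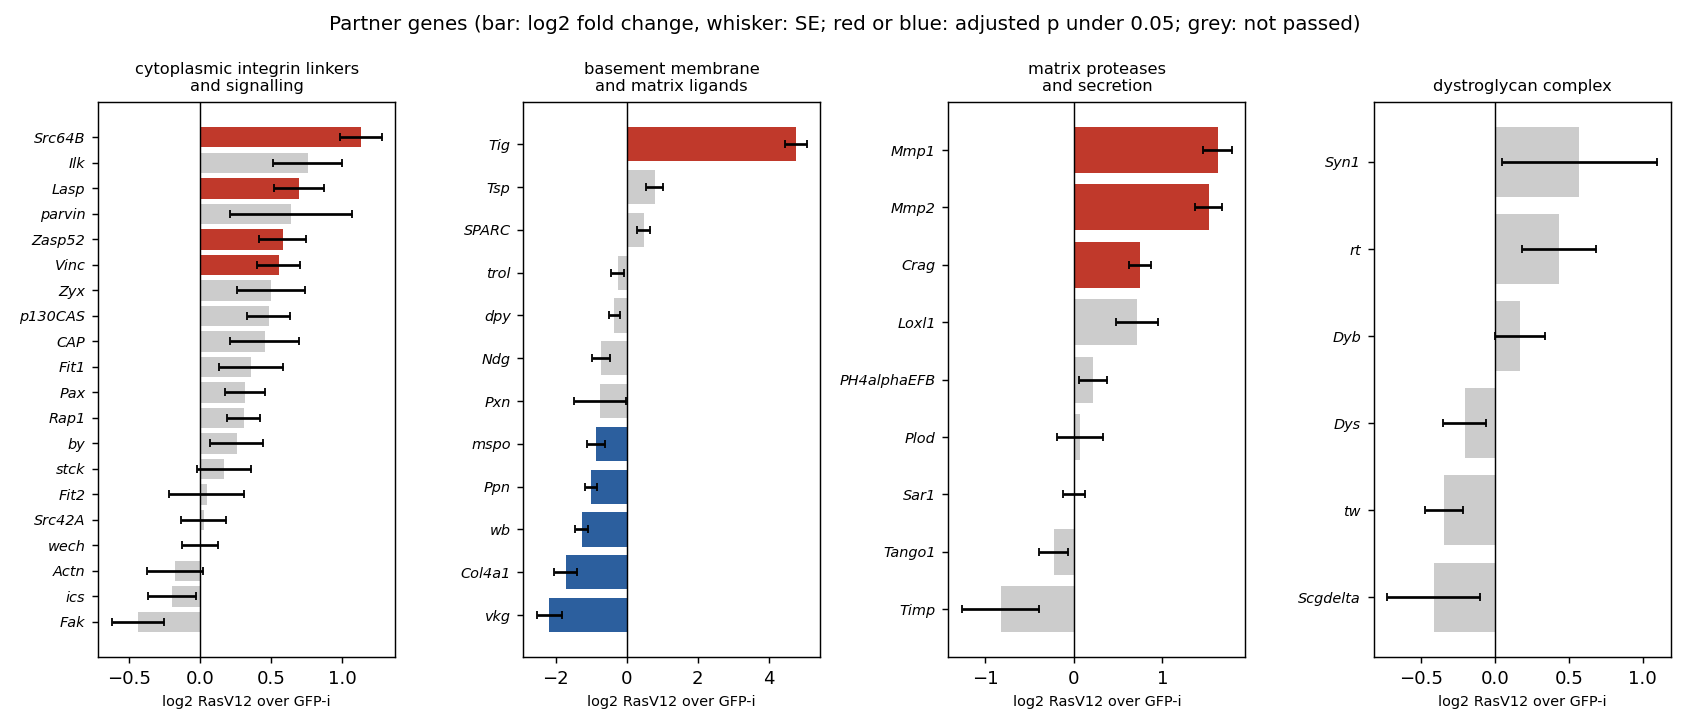
Log2 fold changes, RasV12 over GFP-i, with SE (whiskers) for tested partner genes in 4 lists; red and blue bars rose and fell at an adjusted p under 0.05, and grey bars did not pass. Tig, at 4.77, stands apart from the other matrix genes, of which 5 fell, and Src64B, at 1.13, leads the linker genes.

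Of 6 dorsal wing identity genes, Dr and trn rose, by 0.87 ± 0.13 and 1.498 ± 0.24 (log2, SE), and none fell; both held in all 16 alternatives. Their summed level was 1787 to 2235 CPM in RasV12, against 1208 to 1402 CPM in GFP-i libraries, and most of that difference came from trn, at 891 ± 271 CPM in RasV12, against 315 ± 60.2 CPM in GFP-i (SD, n = 3 each). The selector ap and caps did not pass, at log2 fold changes of -0.20 and -0.09 (edgeR adjusted p = 0.438 and 0.763). Among 6 neuron or glia markers, which summed to 87.2 to 101 CPM in RasV12, against 79.4 to 112 CPM in GFP-i, moody rose and brp fell. Both calls were lost when some single libraries were left out, moody without RasV12 replicate 1 (adjusted p = 0.058) or GFP-i replicate 1, 2 or 3 (0.073 to 0.139) and brp without GFP-i replicate 2 (0.051). The level of moody is uncertain, since CG4313 overlaps it on the other strand.

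Genes with a pattern over the 6 libraries close to those of mew and if were sought among 4982 genes with a mean of at least 10 CPM. Likeness was the mean absolute difference in log2 CPM, each gene centred on its own mean over the 6 libraries. Closest to mew were CG43902 (0.033), CG8565 (0.045) and the G protein-coupled receptor kinase gene Gprk2 (0.066). Closest to if were the corazonin receptor gene CrzR (0.064), the Fos transcription factor gene kay (0.078) and the titin-like gene sls (0.084). The same 6 libraries chose these genes, so their direction and approximate fold change were fixed by the choice and are not a result.

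In the authors' deposited table, scb and rhea were the 2 genes of the 9 that the authors called, as higher, where 4.52% of 9868 genes with an adjusted p were called higher. Every gene that table calls has a shrunken log2 fold change of at least 1 in size. The authors' deposited table gives unshrunken log2 fold changes of 1.153 for scb, 1.18 for rhea, 0.65 for mys, 0.74 for if, 0.56 for Dg, -0.71 for mew and -0.47 for LanA. Its adjusted p-values, in the authors' deposited table, were 0.0066 for if and 0.016 for LanA, the 2 largest among those 7 genes, and 0.764 for LanB1 and 0.371 for LanB2.

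**Figure D5:**
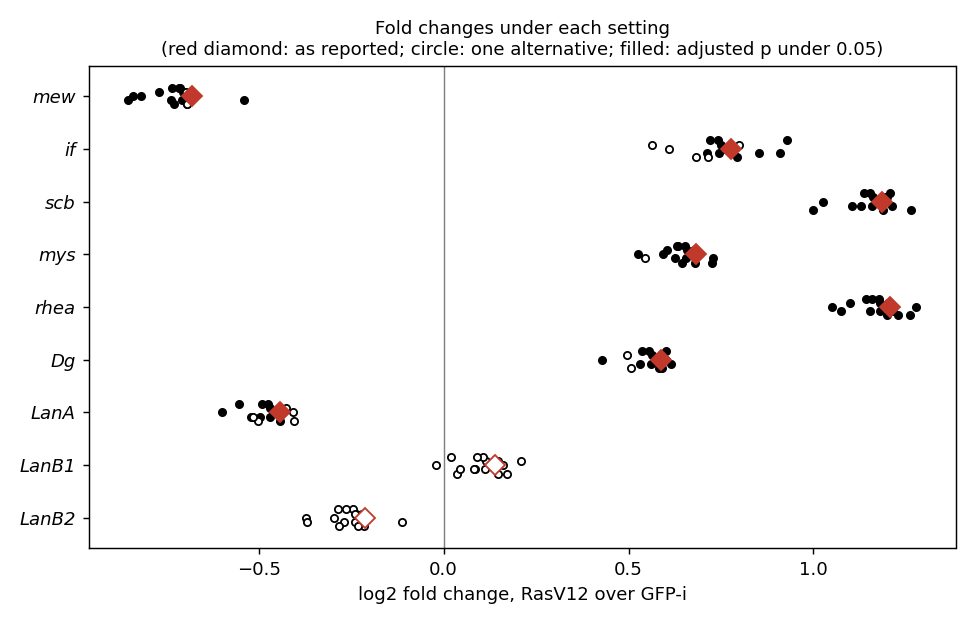
Log2 fold change of each gene as reported (diamond) and in each of the 16 alternatives (circles); filled symbols have an adjusted p under 0.05. The circles of scb and rhea are all filled, those of if and LanA are filled in 10 of 16 alternatives each, and those of LanB1 and LanB2 are all open.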

How the data were processed

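The deposited file holds unnormalized counts for each gene in 6 libraries beside the authors' comparison. Trimmomatic 0.33, STAR 2.3.0e, bedtools 2.17, FastQC and DESeq2 were used with build dm6, per the submitters' processing notes. The counting program, with its strand setting and annotation, was not given in the sources used here. As for the columns that the authors deposited, baseMean is a signal, the mean of size-factor-scaled counts, and was not used; the test statistic, a score per the file headers, was not used either. The log2 fold changes, p-values and calls of the authors' comparison are as deposited. Coordinates are those of the table; 98.5% of 14018 identifiers shared with the Ensembl annotation had identical coordinates.

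The test was edgeR 4.0.16 in R 4.3.3, fitted on the whole table (TMM, filterByExpr, robust quasi-likelihood F tests, two-sided, Benjamini-Hochberg over 9134 tested genes, threshold 0.05); 5099 genes were too low. SEs and 95% intervals come from the F statistic. The test was checked on simulated data, in which 100 genes changed 2-fold and 100 changed 4-fold. The changed genes were drawn from those with a mean of at least 10 CPM. It called 83% of the 2-fold and 100% of the 4-fold changes. Of its calls, 9.41% were unchanged genes, more than the threshold of 0.05 aims at. Changes under 2-fold, and changes in genes with a mean below 10 CPM, were not simulated. Alternatives, 16 in all, included DESeq2 1.42.0 and limma-voom (limma 3.58.1). Libraries of a genotype differed by more than sampling noise. Genes named are the 9 genes, wb, Ilk and Mmp1, the lowest p in each direction or all where 5 or fewer of a list passed, the 3 closest patterns for mew and if, and, chosen after their values were seen, further list members given with their values. The genes and lists were chosen with earlier results of these data known. The list entries Fermt1 and Fermt2 were matched by description to Fit1 and Fit2; NimC1 and Loxl2 are not analysed here.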

Additional observations from a re-analysis of the deposited data

How the results depend on the processing

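Of the 7 genes that changed, scb and rhea passed in all 16 alternatives, mys in 15, mew in 14, Dg in 13, and if and LanA in 10 each, and their sign did not change in any of the 16. Beside 5 rises and 2 falls as reported, the 9 genes gave 4 and 2 when scaled by library totals alone, 4 and 1 with both RasV12 replicate 3 and GFP-i replicate 2 left out, and 3 to 5 and 0 to 2 when 1 library was left out. Over all tested genes, beside 836 higher and 519 lower, there were 910 lower when scaled by library totals, 436 and 242 with those 2 libraries left out, and 437 to 943 and 297 to 578 when 1 library was left out. A replicate block left 3 rises and 0 falls among the 9 genes, and 480 and 221 calls over all genes, and shg and Dll missed the threshold with it (adjusted p = 0.097 and 0.114). Same-numbered libraries deviated from their group means with correlations of -0.154, -0.471 and -0.139, so the numbers are not taken as pairs, and no library correlated best with its own number. Across numbers, RasV12 replicate 3 correlated at 0.623 with GFP-i replicate 2 and at -0.562 with GFP-i replicate 1. RasV12 replicate 2 correlated at 0.501 with GFP-i replicate 1. The fit as reported had no term for such shared variation, and its source was not tested. The sign of LanB1 changed with scaling by library size only, where it was -0.02. The cause of these differences was not tested. With 273 to 7686 counts per library, counting error is small for the 9 genes, and the spread between 3 libraries limits the precision.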

Other observations

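Within the RasV12 libraries the 9 genes did not vary in step. RasV12 replicate 2 had the lowest level of the RasV12 libraries for mew (222 CPM), if (39.98 CPM) and LanB2 (63.1 CPM), and the highest for scb (87.3 CPM), rhea (129 CPM), LanA (226 CPM) and LanB1 (107 CPM). For mys, RasV12 replicates 1 and 2 were nearly equal, at 114.5 and 113.9 CPM. Replicate 2 of RasV12 was also the library with the fewest counts, 11070295, and the largest mitochondrial share, 5.31% against 2.16 and 3.24% in the other RasV12 libraries. Leaving it out gave 5 rises and 2 falls among the 9 genes and 943 higher and 578 lower genes in all.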
